A study of Arabidopsis thaliana with 41 samples.

Results

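The genes described here are the chloroplast-encoded subunits of the photosynthetic complexes of *Arabidopsis thaliana*. They were chosen from a list of 45 chloroplast gene identifiers (psa, psb, pet, atp, ndh and rbcL genes) and not by any measured value. Of the 45, 44 had a row among the 32865 gene rows of the count table. The second of the identical *ndhB* copies is not analysed here, and the copy with a row is called *ndhB.1*. Photosystem II (PSII) contributed 15 genes, photosystem I (PSI) 5, the cytochrome b6f complex 6, the ATP synthase 6, the NADH dehydrogenase-like complex (NDH) 11 with a row, and the large subunit of Rubisco is *rbcL*. The 44 genes are part of 116 chloroplast rows, 112 of which held counts, and they took 94.9 to 97.8% of the chloroplast counts of a library.

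RNA was sequenced from rosette leaves of Columbia plants grown in long days, each biological repeat being a pool of at least 6 plants, in 16 libraries. The *Atepl1-2* mutant carries Cas9 frameshift deletions in both *AtEPL1* copies and was sequenced in 2 sets of 3 libraries whose labels are spelled in 2 ways. *Ateaf1-1* (3 libraries) is a Cas9 deletion that fuses the tandem *AtEAF1A* and *AtEAF1B* genes out of frame, *glk* (3 libraries) carries transposon insertions in *GLK1* and *GLK2*, and WT (4 libraries) is the unmutated background. EPL1 and EAF1 are subunits of NuA4, a histone acetyltransferase complex, while the GLKs are transcription factors that switch on nuclear photosynthesis genes. WT replicates 5, 7 and 8 have labels of the first kind, together with the first *Atepl1-2* set. WT replicate 4 has labels of the second kind, together with the second *Atepl1-2* set, *Ateaf1-1* and *glk*. The labels do not say what the kinds stand for. Values of single libraries are given in the order of replicates 1, 3 and 4 for *Atepl1-2*, 1, 2 and 3 for *Ateaf1-1* and *glk*, and 5, 7, 8 and 4 for WT. Each mutant is a single allele combination, and the second *Atepl1-2* set, *Ateaf1-1* and *glk* were compared with the same 4 WT libraries, so these comparisons are not independent.

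The chloroplast genome keeps genes for the core of each photosynthetic complex, whereas the nucleus encodes the remaining subunits, so that both genomes have to supply each complex. Most chloroplast genes lie in clusters that are transcribed together by a bacterial-type polymerase, whose core is itself chloroplast-encoded, or by a phage-type polymerase encoded in the nucleus. The resulting RNAs are then cut, spliced, edited and protected by nuclear-encoded proteins. PSII splits water, the cytochrome b6f complex passes the electrons on, PSI lifts them to ferredoxin, the ATP synthase uses the proton gradient, Rubisco fixes carbon dioxide, and NDH returns electrons from ferredoxin to the quinone pool around PSI.

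In the RefSeq chloroplast sequence (assembly TAIR10.1, sequence Pltd, 154478 bases), 35 of the 44 genes lie in the large single-copy region and 7 in the small single-copy region, *ndhB.1* (ATCG00890) lies in the inverted repeat and *ndhF* crosses the edge of the small region. Neighbouring members often share one RNA, and the *ndh* genes fall into separate clusters. *ndhC* (ATCG00440, Pltd:50001-50363), *ndhK* (ATCG00430, Pltd:49257-49934) and *ndhJ* (ATCG00420, Pltd:48677-49153) follow each other on the minus strand of the large region, 66 and 103 bases apart. *ndhH*, *ndhA*, *ndhI*, *ndhG*, *ndhE*, *psaC* and *ndhD* follow each other on the minus strand of the small region between positions 115665 and 123192. The sequences below show where reads cannot be assigned to 1 member without doubt, and the region before the most abundant member. In the first and second line, capitals mark bases that belong to both reading frames, of which *psbD* and *psbC* share 53 (Pltd:33720-33772, plus strand, the first 24 of them shown) and *atpB* and *atpE* share 4 (Pltd:52660-52663, minus strand). In the last line (Pltd:1530-1559, minus strand), capitals mark the letters TTGACA and TANNNT, 18 bases apart. The first letter of TTGACA lies 115 bases before the start codon of *psbA*.
psbD-psbC overlap: agcctcATGAAAACCTTATATTCCCTGAGG
atpB-atpE overlap: gaagaaATGAccttaa
psbA upstream: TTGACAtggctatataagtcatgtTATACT

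The letters TTGACA followed after 16 to 18 bases by TANNNT, searched on the strand of each gene in the 250 bases before its start codon, were present before 3 of 83 chloroplast protein-coding genes (3.61%), and *psbA* was the only member among them. *psbN* (Pltd:74249-74380, minus strand) lies opposite the *psbB-psbT-psbH-petB-petD* cluster. The library kit keeps the strand, but whether the counting used it is not given in the sources used here, so the counts of *psbN* may include reads of the other strand.

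The libraries held 22330141 to 39666320 counts. Leaf markers (RBCS1A, RCA, CA1 and LHCB1.3) summed to 2233 to 2517 TPM in *glk* and 3057 to 6363 TPM in the other libraries, root markers to at most 0.0320 TPM and seed markers to at most 0.402 TPM. Flower markers summed to 3.66 to 5.79 TPM in *glk* and to at most 1.40 TPM elsewhere. The summed TPM of the shoot meristem markers STM and KNAT1 was 1.21 to 1.64 in the second *Atepl1-2* set, 0.905 to 1.42 in *Ateaf1-1*, 2.14 to 2.49 in *glk*, at most 0.0935 in the first *Atepl1-2* set, and 0 in WT, with both genes at 0 in every WT library, and the part of these markers in the results was not tested. *GLK1* stood at 1.67 to 1.98 TPM in *glk*, against 6.07 to 11.4 TPM in WT, whereas *GLK2*, *AtEPL1A*, *AtEPL1B*, *AtEAF1A* and *AtEAF1B* were not lower in their own mutants than in WT (for example *GLK2*, 7.79 to 8.54 TPM in *glk*, against 5.13 to 8.82 TPM in WT). On the TPM scale and against WT, the RNA levels therefore check the labels through *GLK1* alone. Of the libraries, 3 stood apart from the rest of their group. Replicate 4 of the second *Atepl1-2* set was lower than its replicates 1 and 3 in the members of 1000 bases or more (median log2 difference −0.46 over 13 genes) and higher in the shorter ones (0.39 over 30 genes), *Ateaf1-1* replicate 2 had the smallest chloroplast share of all libraries (40.2%), and WT replicate 4 differed from the other WT libraries in many members, as described below.

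Chloroplast RNA took a smaller part of the libraries of both NuA4 mutants than of WT, while in *glk* this depended on *psbA*. Chloroplast rows held 54.9, 53.6 and 55.9% of all counts in the first *Atepl1-2* set, 44.9, 49.9 and 54.9% in the second set, 50.2, 40.2 and 49.9% in *Ateaf1-1*, 61.4, 64.5 and 62.1% in *glk*. WT libraries held 59.98, 65.6, 61.2 and 63.6%. All NuA4 mutant libraries were below all WT and *glk* libraries, while the *glk* and WT values overlapped. The difference was −12.7 percentage points for the second *Atepl1-2* set and −15.8 for *Ateaf1-1* against WT (exact permutation test, two-sided p = 0.0286 each, the smallest that 3 against 4 libraries allow), −7.50 for the first set against its 3 WT libraries (exact p = 0.1, the smallest for 3 against 3) and 0.0496 for *glk* (exact p = 1). After adjustment over the 42 tests of organelle shares, the lowest of these p values was 0.133. Without *psbA*, chloroplast rows held 25.6, 22.8 and 25.4% of all counts in *glk*, against 27.4, 34.0, 29.5 and 26.6% in WT, so that every *glk* library was below every WT library (difference −4.77 percentage points, exact permutation p = 0.0571, adjusted 0.135). For the second *Atepl1-2* set and *Ateaf1-1* the difference from WT without *psbA* was −12.0 and −10.8 percentage points (exact permutation p = 0.0286 each, adjusted 0.133). In bulk leaf RNA, fewer chloroplast-rich cells and less chloroplast RNA per cell cannot be told apart.

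Relative to all genes, many members were lower in the NuA4 mutants than in WT. On this scale counts were normalised with TMM, a trimmed-mean scaling. A gene was called when edgeR's quasi-likelihood test gave an adjusted p under 0.01 and the change was at least 1.5-fold. In the first *Atepl1-2* set 20 of the 44 members were lower than in WT (lower calls among all genes, 21.8%), in the second set 23 (13.5% of all genes) and in *Ateaf1-1* 24 (12.5%). In *glk* 1 member, *psbE*, was lower than in WT (7.45% of all genes), with 11 lower at an unadjusted p under 0.05 and 10 called lower by DESeq2. Against *glk*, which shares the label kind, 12 members were lower in the second *Atepl1-2* set (11.3% of all genes) and 12 in *Ateaf1-1* (9.58%). With any 1 library of the groups compared left out, 4 to 7 members were lower in *Ateaf1-1* than in *glk*. In the second *Atepl1-2* set the range was 9 to 14, the 14 coming from the fit without its replicate 4. No member was called higher in any of the 6 comparisons by edgeR, limma-voom or DESeq2, and at an unadjusted p under 0.05 edgeR had 1 higher member in the first *Atepl1-2* set and 4 in *glk* against WT and 0 in the other comparisons (higher calls among all genes, 23.3, 16.8, 13.6, 4.18, 15.6 and 12.1% in the order above). The median log2 change of the members was −0.82, −1.26, −1.16 and −0.24 in the first and second *Atepl1-2* sets, *Ateaf1-1* and *glk* against WT, and −0.84 and −0.74 in the second *Atepl1-2* set and *Ateaf1-1* against *glk*, beside 0.02 to 0.07 over all genes tested. With WT replicate 4 as the only WT library, 17 members were lower in the second *Atepl1-2* set, 14 in *Ateaf1-1* and 0 in *glk*. Without that library, the calls were 5 higher and 23 lower, 3 higher and 24 lower, and 7 higher and 9 lower, in the same order.

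**Figure D1:**
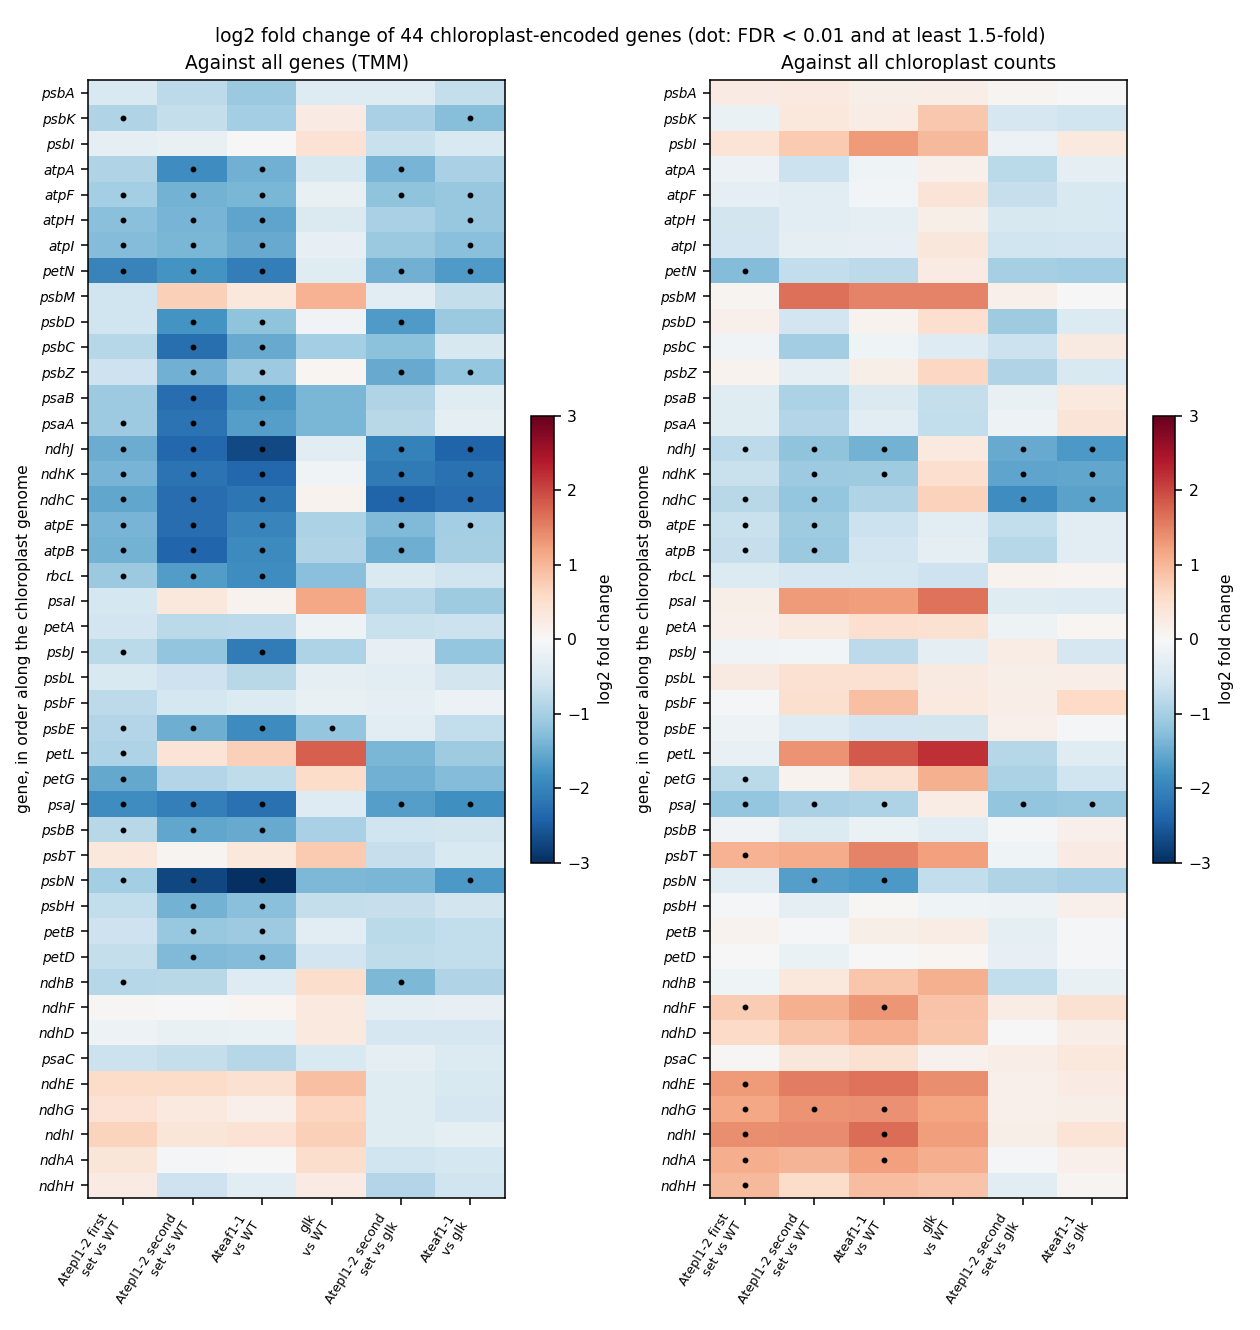
Heat maps of the log2 fold change of 44 members, in order along the chloroplast genome (rows), in 6 comparisons (columns), relative to all genes after TMM (left) and to all chloroplast counts (right), with a dot where the adjusted p was under 0.01 and the change at least 1.5-fold. *ndhC*, *ndhK*, *ndhJ* and *psaJ* carry dots in both comparisons with *glk* on both scales, whereas the *ndh* genes of the small single-copy region carry none on the left.

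To compare the members with each other, the counts were also set against the chloroplast counts of the same library, which removes a change shared by the organelle. *psbA* held 48.3 to 71.6% of these counts, so that a change in *psbA* also moves the shares of the other members. On this scale, with p values adjusted over the 112 chloroplast rows, 7 members were higher and 7 lower in the first *Atepl1-2* set than in WT (8.04 and 24.1% of the chloroplast rows), with 6 *ndh* genes and *psbT* among the higher and *petN*, *petG*, *psaJ*, *ndhC*, *ndhJ*, *atpB* and *atpE* among the lower. There were 1 higher and 7 lower in the second set (2.68 and 12.5%), the lower ones being *psbN*, *psaJ*, *ndhC*, *ndhK*, *ndhJ*, *atpB* and *atpE*, and 4 higher and 4 lower in *Ateaf1-1* (8.04 and 8.93%), the lower ones being *psbN*, *psaJ*, *ndhK* and *ndhJ*. In *glk* edgeR called 0 higher and 0 lower (4.46 and 6.25%), with 17 higher and 2 lower at an unadjusted p under 0.05 and 5 and 0 called by DESeq2. Against *glk*, 0 members were higher and the same 4 were lower in the second *Atepl1-2* set and in *Ateaf1-1* (0 and 3.57% of the chloroplast rows in each): *ndhC*, *ndhK*, *ndhJ* and *psaJ*. DESeq2 called 0 higher there as well, and no member was higher at an unadjusted p under 0.05 by edgeR. With WT replicate 4 as the only WT library, no member was called against WT on this scale in either direction by edgeR. Without it, 13 members were higher and 9 lower in the second *Atepl1-2* set, 17 and 7 in *Ateaf1-1*, and 18 and 1 in *glk*, so that the number of higher calls against the 4 WT libraries rests on this library. With *psbA* left out of the chloroplast total, 9 members were higher and 2 lower in the first *Atepl1-2* set than in WT (22 and 14 of 112 rows). In the second set 5 were higher and 0 lower (11 and 5 rows), and in *Ateaf1-1* 5 and 1 (11 and 7 rows). In *glk* 2 were higher and 0 lower (10 and 7 rows). Against *glk*, 0 were higher and 3 lower in both the second *Atepl1-2* set and *Ateaf1-1* (0 and 3 rows).

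The composition of chloroplast RNA was dominated by *psbA* and *rbcL* in every library. The complexes were compared as percent of chloroplast counts by an exact two-sided permutation test over libraries, and none of the 42 tests passed after adjustment (lowest adjusted p = 0.229), nor did any of 36 ratios to the PSII genes other than *psbA* (lowest adjusted p = 0.257). The shares whose libraries did not overlap are given below with their complex.

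**Figure D2:**
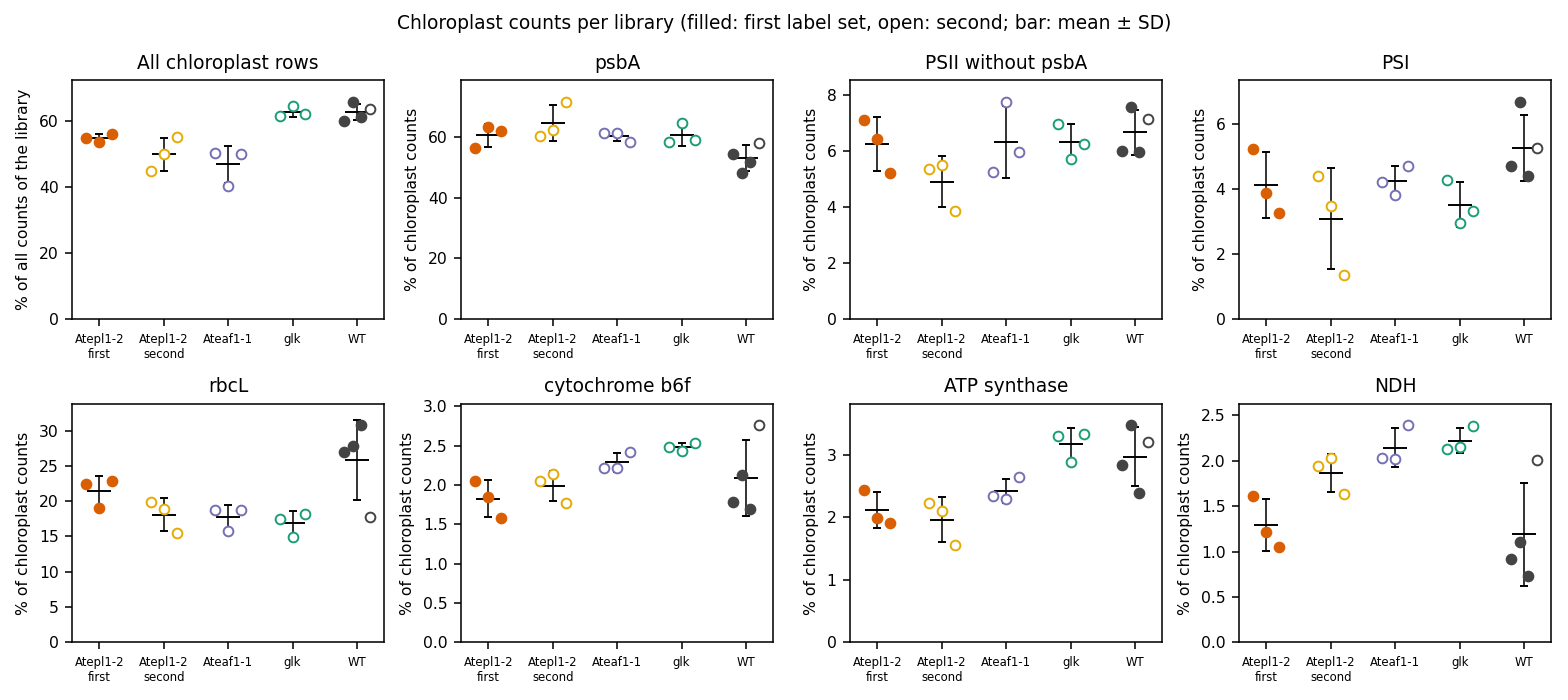
Chloroplast counts as percent of all counts (first panel) and 7 gene groups as percent of chloroplast counts (y axes), 1 point a library, filled for labels of the first kind and open for the second, with mean ± SD bars for 5 groups of libraries (x axes). For NDH, rbcL and the cytochrome b6f complex, the open WT point (replicate 4) lies apart from the filled WT points, and for the ATP synthase all *Atepl1-2* second set and *Ateaf1-1* points lie below all *glk* points.

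*psbA* (ATCG00020), which encodes the D1 protein of the PSII reaction centre and is replaced continually in the light, was the most counted member. Its share of chloroplast counts was 56.3, 63.4 and 62.0% in the first *Atepl1-2* set, 60.3, 62.3 and 71.6% in the second, 61.3, 61.3 and 58.4% in *Ateaf1-1*, 58.2, 64.6 and 59.0% in *glk*. WT libraries held 54.3, 48.3, 51.7 and 58.1%. Every mutant share lay above the WT shares it was compared with, *glk* included, but *glk* replicate 1 and *Ateaf1-1* replicate 3 only just exceeded WT replicate 4. The mean share was 64.7 ± 6.0% in the second *Atepl1-2* set (SD, n = 3), against 53.1 ± 4.2% in WT (n = 4; exact permutation p = 0.0571, adjusted 0.229). As percent of all counts of the library, the difference had the other sign in the second *Atepl1-2* set (−0.764 percentage points) and in *Ateaf1-1* (−5.04). It kept its sign in the first set (mean 33.1%, against 32.0% in its WT libraries) and in *glk* (38.0%, against 33.2% in WT). Relative to all genes, the log2 change of *psbA* was −0.45 ± 0.24 in the first set, −0.78 ± 0.36 in the second, −1.11 ± 0.36 in *Ateaf1-1* and −0.39 in *glk* against WT (± SE), none of them called by edgeR (adjusted p 0.125, 0.0906, 0.0251 and 0.461).

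The other PSII genes encode the D2 protein (*psbD*), the inner antenna proteins CP47 and CP43 (*psbB* and *psbC*), cytochrome b559 (*psbE* and *psbF*) and small membrane subunits. Of the 15 PSII genes, 5, 7 and 8 were lower relative to all genes in the first and second *Atepl1-2* sets and *Ateaf1-1* than in WT, and *psbE* in *glk*. Among all genes 21.8, 13.5, 12.5 and 7.45% were lower in these 4 comparisons. Against *glk*, 2 of the 15 were lower in the second *Atepl1-2* set (11.3% of all genes) and 3 in *Ateaf1-1* (9.58%), so that the second set stood near the share of all genes. In normalised CPM, counts are scaled to the library total multiplied by its TMM factor. In the fit of 13 libraries these factors were 0.597 to 0.854 in WT and 0.975 to 1.44 in the mutants. This scaling lowers mutant values relative to WT, compared with library totals alone. *psbE* stood at 1329, 2021 and 2736 normalised CPM in the second *Atepl1-2* set and 1431, 1422 and 1719 in *Ateaf1-1*. In *glk* it stood at 2303, 2807 and 2500. WT libraries held 4703, 7158, 5553 and 5088. All mutant libraries were below all WT libraries, and the log2 change was −1.47 ± 0.27, −1.88 ± 0.28 and −1.15 ± 0.27 in the second *Atepl1-2* set, *Ateaf1-1* and *glk* (edgeR, adjusted p 0.000701, 0.000142 and 0.0079). The *glk* call was lost with WT replicate 4 as the only WT library, and when any 1 of the *glk* libraries or of WT replicates 5, 7 and 8 was left out. A fit without the filter on low counts, with a label term or of 2 groups lost it as well.

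*psbN* (ATCG00700), an assembly factor of PSII named as a subunit, was the lowest member in the second *Atepl1-2* set and *Ateaf1-1* on both scales against WT. Its share of chloroplast counts was 0.0270, 0.0504 and 0.0422% in the second *Atepl1-2* set, 0.0431, 0.0463 and 0.0239% in *Ateaf1-1*, 0.0618, 0.0939 and 0.0679% in *glk*. WT libraries held 0.118, 0.134, 0.173 and 0.0732%. Both NuA4 mutants of this label kind were below all WT and *glk* libraries, whereas the first *Atepl1-2* set (0.123, 0.112 and 0.102%) overlapped WT. On chloroplast counts the log2 change against WT was −1.64 ± 0.36 and −1.72 ± 0.36 (edgeR, adjusted p 0.00639 and 0.00445). With 1 library left out, the call held on this scale in 1 of 7 fits in each mutant (edgeR, highest adjusted p 0.0302 and 0.0222). With *psbA* left out of the chloroplast total, no PSII gene was called lower in either mutant. Relative to all genes *psbN* changed by −2.74 ± 0.44 and −3.08 ± 0.45 (adjusted p 0.000232 and 0.000127). Against *glk* it was called only for *Ateaf1-1* relative to all genes (−1.72, edgeR adjusted p = 0.00769), a call lost in each of the 6 fits with 1 library left out (highest adjusted p 0.0387), and the difference between the mutants was not tested.

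Small PSII genes held some of the largest gaps between WT libraries. *psbM* (ATCG00220), a small subunit at the dimer contact, took 0.145, 0.192 and 0.205% of chloroplast counts in the second *Atepl1-2* set, 0.160, 0.128 and 0.195% in *Ateaf1-1*, 0.106, 0.190 and 0.195% in *glk* and 0.138% in WT replicate 4, against 0.0284, 0.0280 and 0.0368% in WT replicates 5, 7 and 8. The first *Atepl1-2* set, at 0.0361, 0.0289 and 0.0334%, stood with the WT libraries of its own label kind. *psbM* had the highest log2 change relative to all genes in the second *Atepl1-2* set against WT (0.71, edgeR adjusted p = 0.237), which was −0.40 against WT replicate 4 alone. *psbJ* (0.216, 0.265 and 0.276% in the second *Atepl1-2* set, 0.193, 0.0703 and 0.198% in *Ateaf1-1*, 0.205, 0.215 and 0.233% in *glk*) and *psbF* (0.0522, 0.0616 and 0.0560%, 0.0441, 0.136 and 0.0453%, and 0.0466, 0.0514 and 0.0507%, in the same order) show the deviation of *Ateaf1-1* replicate 2, low in *psbJ* and high in *psbF*. They were the members nearest to 0 against *glk* relative to all genes, *psbJ* at −0.25 in the second *Atepl1-2* set and *psbF* at −0.18 in *Ateaf1-1* (adjusted p 0.687 and 0.79).

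PSI is built around *psaA* and *psaB*, its reaction centre proteins, with *psaC* carrying the iron-sulphur clusters and *psaI* and *psaJ* as small subunits. Of these 5 genes, 2, 3 and 3 were lower relative to all genes in the first and second *Atepl1-2* sets and *Ateaf1-1* than in WT. Among all genes 21.8, 13.5 and 12.5% were lower there. *psaA* (ATCG00350), the most counted, took 2.42, 1.79 and 1.49% of chloroplast counts in the first *Atepl1-2* set, 2.02, 1.48 and 0.400% in the second, 1.92, 1.67 and 2.103% in *Ateaf1-1*, 1.85, 1.16 and 1.34% in *glk*. WT libraries held 2.203, 3.09, 2.03 and 2.29%. The value of 0.400% belongs to replicate 4 of the second set, while *glk* and the rest of the second set lay below all WT libraries and *Ateaf1-1* overlapped them. The log2 change of *psaA* relative to all genes was −1.10 ± 0.28, −2.22 ± 0.40 and −1.66 ± 0.39 in the first and second *Atepl1-2* sets and *Ateaf1-1* (edgeR, adjusted p 0.00755, 0.000531 and 0.00397). It was −1.38 ± 0.38 in *glk*, where it was the lowest member but not called (adjusted p = 0.0192). The summed PSI share was 3.52 ± 0.69% in *glk* (n = 3), against 5.27 ± 1.0% in WT (n = 4), without overlap (exact permutation p = 0.0571, adjusted 0.229).

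*psaJ* (ATCG00630) set the NuA4 mutants apart from *glk* as well as from WT. It took 0.0641, 0.0516 and 0.0541% of chloroplast counts in the first *Atepl1-2* set, 0.0534, 0.0659 and 0.0694% in the second, 0.0676, 0.0544 and 0.0710% in *Ateaf1-1*, 0.127, 0.147 and 0.152% in *glk*. WT libraries held 0.101, 0.1299, 0.148 and 0.112%. The highest of the 9 NuA4 mutant libraries was at 0.0710% and the lowest *glk* or WT library at 0.101%. On chloroplast counts the log2 change against *glk* was −1.18 ± 0.23 in the second *Atepl1-2* set and −1.14 ± 0.23 in *Ateaf1-1* (edgeR, adjusted p 0.00497 and 0.00634), and relative to all genes −1.64 ± 0.33 and −1.83 ± 0.34. Leaving out any 1 of the 6 libraries ended both calls on chloroplast counts (highest adjusted p 0.033 and 0.041), whereas relative to all genes both calls held in each of those 6 fits. With *psbA* left out of the chloroplast total, no PSI gene was called against *glk* in either mutant. The neighbours of *psaJ*, *petL* and *petG*, were not called against *glk*.

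In the cytochrome b6f complex, *petA* encodes cytochrome f, *petB* cytochrome b6, *petD* subunit IV, and *petG*, *petL* and *petN* small subunits. Among all genes, 21.8, 13.5 and 12.5% were lower than in WT in the first and second *Atepl1-2* sets and *Ateaf1-1*. Of the 6 genes of the complex, 3 were lower relative to all genes than in WT in each of these groups. Only *petN* (ATCG00210, Pltd:28089-28178, plus strand) was lower than in *glk*, in both the second *Atepl1-2* set and *Ateaf1-1* (11.3 and 9.58% of all genes). With 1 library left out, this *petN* call held in 1 of 6 fits in the second set and in 4 of 6 in *Ateaf1-1* (edgeR, highest adjusted p 0.0307 and 0.0113). Its share was 0.0665, 0.0747 and 0.0713% in the first *Atepl1-2* set, 0.0852, 0.0979 and 0.125% in the second, 0.108, 0.0688 and 0.120% in *Ateaf1-1*, 0.188, 0.206 and 0.218% in *glk*. WT libraries held 0.169, 0.176, 0.181 and 0.164%. No NuA4 mutant library reached the lowest WT or *glk* library. Relative to all genes *petN* changed by −2.004 ± 0.17, −1.80 ± 0.35 and −2.07 ± 0.36 on the log2 scale against WT in the first and second *Atepl1-2* sets and *Ateaf1-1* (edgeR, adjusted p 9.69e-06, 0.00102 and 0.000467), and on chloroplast counts it was called in the first set alone (−1.31 ± 0.23, adjusted p = 3.37e-07).

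*petB* (ATCG00720) was the most counted gene of the complex, at 0.930, 0.817 and 0.695% of chloroplast counts in the first *Atepl1-2* set, 0.949, 0.970 and 0.754% in the second, 0.997, 1.04 and 1.09% in *Ateaf1-1*, 1.11, 1.06 and 1.06% in *glk*. WT libraries held 0.744, 0.875, 0.666 and 1.39%. WT replicate 4 was the highest library and the other WT libraries overlapped the mutants. *petL*, the least counted member, was at 0.0188, 0.0266 and 0.0221% in the second *Atepl1-2* set, 0.0294, 0.0330 and 0.0335% in *Ateaf1-1*, 0.0197, 0.0459 and 0.0572% in *glk* and 0.0257% in WT replicate 4, against 0.00370, 0.00251 and 0.00228% in the first *Atepl1-2* set and 0.00272, 0.00332 and 0.00383% in the WT libraries of the same label kind. The 2 label kinds did not overlap for *petL*, whichever the genotype, and its higher values against all 4 WT libraries (1.78 in *glk* relative to all genes, edgeR adjusted p = 0.0491, and 2.202 on chloroplast counts, adjusted p = 0.0306) were not called. The summed share of the complex was 1.99 ± 0.19% in the second *Atepl1-2* set and 2.29 ± 0.12% in *Ateaf1-1*, against 2.48 ± 0.05% in *glk* (n = 3 each), without overlap (exact permutation p = 0.1, the smallest possible, adjusted 0.229). The highest *Ateaf1-1* library (2.426%) lay only just under the lowest *glk* library (2.427%), and WT libraries ran from 1.69 to 2.76%.

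Among the complexes with several members here, the ATP synthase had the highest share of genes lower than in WT in each NuA4 mutant group. Of the genes for its catalytic head (*atpA*, *atpB* and *atpE*) and membrane part (*atpF*, *atpH* and *atpI*), 5, 6 and 6 of 6 were lower than in WT in the first and second *Atepl1-2* sets and *Ateaf1-1* relative to all genes, and 4 were lower than in *glk* in each of the second *Atepl1-2* set and *Ateaf1-1*. Among all genes 21.8, 13.5 and 12.5% were lower than in WT, and 11.3 and 9.58% lower than in *glk*. The median log2 change of the 6 genes was −1.28, −1.65 and −1.55 against WT, −0.45 in *glk*, and −1.26 and −1.08 against *glk*. Their summed share of chloroplast counts was 2.44, 1.99 and 1.91% in the first *Atepl1-2* set, 2.23, 2.0998 and 1.55% in the second, 2.34, 2.29 and 2.64% in *Ateaf1-1*, 3.30, 2.88 and 3.32% in *glk*. WT libraries held 2.83, 3.47, 2.39 and 3.19%. Both NuA4 mutants of the second label kind lay below all *glk* libraries, and *Ateaf1-1* overlapped WT only through WT replicate 8. The mean was 1.96 ± 0.36% in the second *Atepl1-2* set and 2.42 ± 0.19% in *Ateaf1-1*, against 3.17 ± 0.25% in *glk* (exact permutation p = 0.1, adjusted 0.229). Over chloroplast counts without *psbA* the mean was 5.54 ± 0.08% and 6.09 ± 0.23%, against 8.06 ± 0.13% in *glk*, again without overlap (exact permutation p = 0.1, adjusted 0.263).

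Within the complex, *atpA* (ATCG00120), the most counted gene, stood at 0.722, 0.570 and 0.509% in the first *Atepl1-2* set, 0.584, 0.498 and 0.270% in the second, 0.617, 0.608 and 0.694% in *Ateaf1-1*, 0.874, 0.651 and 0.826% in *glk*, and 0.690, 0.832, 0.505 and 0.791% in WT, with overlap between *Ateaf1-1* and *glk*. *atpB* was at 0.501, 0.421 and 0.408%, 0.428, 0.345 and 0.180%, 0.440, 0.459 and 0.487%, and 0.625, 0.507 and 0.594% in the same 4 mutant groups, and at 0.714, 0.890, 0.556 and 0.594% in WT. All NuA4 mutant libraries lay below all *glk* and WT libraries for *atpB*, which shares its cluster with *atpE*. On chloroplast counts *atpB* changed by −0.70 and −1.12 and *atpE* by −0.68 and −1.06 on the log2 scale in the first and second *Atepl1-2* sets against WT (edgeR, adjusted p 0.00295, 0.00783, 0.00722 and 0.00577). With 1 library left out, the calls of *atpB* held in 2 of 6 and 1 of 7 fits in these sets (edgeR, highest adjusted p 0.0448 and 0.0324). Those of *atpE* held in 2 of 6 and 2 of 7 (0.0771 and 0.0302). Neither gene was called in *Ateaf1-1* on this scale, a difference between mutants that was not tested. With *psbA* left out of the chloroplast total, no ATP synthase gene was called against WT in any NuA4 mutant group.

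*rbcL* (ATCG00490) encodes the large subunit of Rubisco. Its share of chloroplast counts was 22.4, 19.0 and 22.8% in the first *Atepl1-2* set, 19.9, 19.0 and 15.5% in the second, 18.7, 15.8 and 18.8% in *Ateaf1-1*, 17.5, 14.9 and 18.2% in *glk*. WT libraries held 27.0, 27.9, 30.7 and 17.7%. WT replicate 4 lay within the mutant range and the other WT libraries above it. The first set averaged 21.4 ± 2.1% against 28.5 ± 2.0% in its WT libraries (n = 3 each; exact permutation p = 0.1, adjusted 0.229). Relative to all genes *rbcL* was lower in the first and second *Atepl1-2* sets and *Ateaf1-1* than in WT (log2 change −1.10 ± 0.24, −1.68 ± 0.36 and −1.85 ± 0.36, edgeR adjusted p 0.00318, 0.00202 and 0.00124) and was not called against *glk*.

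The calls of the NDH genes fell by cluster, and those of the photosystems and the cytochrome b6f complex were also uneven among their members. Relative to all genes, *ndhC*, *ndhK* and *ndhJ*, which encode a membrane subunit and 2 subunits of the stromal arm, were lower in every NuA4 mutant comparison, whereas edgeR called none of the 6 *ndh* genes of the small single-copy cluster in any of the 6 comparisons. *ndhC* was at 100.5, 123 and 133 normalised CPM in the second *Atepl1-2* set and 130, 95.6 and 160 in *Ateaf1-1*. In *glk* it was at 591, 644 and 644. WT libraries held 495, 762, 376 and 695. The highest NuA4 mutant library was *Ateaf1-1* replicate 3 at 160 CPM, and the lowest of *glk* and WT was WT replicate 8 at 376 CPM. In the separate fit of the first label kind *ndhC* was at 170, 124 and 137 normalised CPM in *Atepl1-2*. WT libraries of that fit held 387, 589 and 291, again without overlap. The log2 change of *ndhC* was −1.56 ± 0.26 in the first *Atepl1-2* set, −2.29 ± 0.28 in the second and −2.18 ± 0.28 in *Ateaf1-1* against WT (edgeR, adjusted p 0.000562, 2.18e-05 and 3.9e-05), and −2.40 ± 0.29 and −2.28 ± 0.29 against *glk* (adjusted p 2.05e-05 and 3.55e-05), whereas *glk* differed from WT by 0.11 ± 0.26 (adjusted p = 0.808).

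*ndhK* and *ndhJ* moved with *ndhC*. For *ndhK* the log2 change relative to all genes was −1.39, −2.23 and −2.35 against WT and −2.12 and −2.25 against *glk* (edgeR, adjusted p 0.000983, 2.71e-05, 2.23e-05, 5.36e-05 and 4.09e-05). For *ndhJ* it was −1.50, −2.35 and −2.71 against WT and −2.04 and −2.39 against *glk* (adjusted p 0.00036, 3.84e-05, 1.7e-05, 0.000159 and 5.38e-05). The 3 genes were called lower in each of 19 alternative fits in both comparisons with *glk* and in those of the second *Atepl1-2* set and *Ateaf1-1* with WT. In the first set *ndhJ* was called in 16 of 16 alternatives and *ndhC* and *ndhK* in 13 of 16. With WT replicate 4 as the only WT library, which leaves a single WT value whose spread is taken from the other groups, *ndhC* differed by −2.56 in the second *Atepl1-2* set and by −2.43 in *Ateaf1-1* (adjusted p 0.000164 and 0.000243).

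As percent of chloroplast counts, the share of *ndhC* was 0.0381, 0.0284 and 0.0274% in the first *Atepl1-2* set, 0.0323, 0.0312 and 0.0236% in the second, 0.0336, 0.0298 and 0.0405% in *Ateaf1-1*, 0.106, 0.0985 and 0.111% in *glk*. WT libraries held 0.0561, 0.0693, 0.0417 and 0.0933%. The share of *ndhJ* was 0.0764, 0.0696 and 0.0627%, 0.0569, 0.0567 and 0.0454%, 0.0461, 0.0323 and 0.0583%, 0.152, 0.143 and 0.158%, and 0.126, 0.141, 0.0906 and 0.133% in the same order. For both genes every NuA4 mutant library was below every WT and *glk* library. On this scale the changes against *glk* were −1.86 ± 0.30, −1.58 ± 0.26 and −1.51 ± 0.26 for *ndhC*, *ndhK* and *ndhJ* in the second *Atepl1-2* set, and −1.60 ± 0.30, −1.57 ± 0.26 and −1.73 ± 0.26 in *Ateaf1-1* (edgeR, adjusted p 0.00248, 0.00248 and 0.00256, and 0.00507, 0.00272 and 0.00218). Every alternative kept the direction, but the call is less firm here than relative to all genes: in the second *Atepl1-2* set leaving out 1 of the 6 libraries in turn kept it for each of the 3 genes in 1 case and lost it in the others (highest adjusted p 0.0155), and without replicate 4 *ndhC* was at −1.73 (adjusted p = 0.0125). In *Ateaf1-1* the 6 fits with 1 library left out kept the call of *ndhC* in 0, of *ndhK* in 1 and of *ndhJ* in 3 (highest adjusted p 0.0301, 0.0221 and 0.019, edgeR). Without *Ateaf1-1* replicate 2, *ndhC* was at −1.51 (adjusted p = 0.0301) in *Ateaf1-1* and *ndhJ* at −1.53 (adjusted p = 0.00938).

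The small single-copy *ndh* cluster followed the chloroplast total or stood above it. *ndhD* (ATCG01050), the most counted NDH gene and a proton-pumping membrane subunit, took 0.344, 0.263 and 0.207% of chloroplast counts in the first *Atepl1-2* set, 0.452, 0.506 and 0.434% in the second, 0.475, 0.582 and 0.558% in *Ateaf1-1*, 0.438, 0.463 and 0.494% in *glk*. WT libraries held 0.169, 0.220, 0.159 and 0.498%. *ndhI*, an iron-sulphur subunit of the stromal arm, took 0.106, 0.0781 and 0.0691%, 0.131, 0.136 and 0.112%, 0.136, 0.155 and 0.161%, 0.102, 0.112 and 0.124%, and 0.0334, 0.0398, 0.0231 and 0.0928% in the same order. WT replicate 4 lay with the mutants of its label kind for *ndhD* and below them for *ndhI*, and far above the other WT libraries for both. On chloroplast counts *ndhA*, *ndhE*, *ndhG*, *ndhH*, *ndhI* and *ndhF* were higher in the first *Atepl1-2* set than in the WT libraries of its label kind, by 0.75 (*ndhF*) to 1.40 ± 0.23 (*ndhI*) on the log2 scale (edgeR, adjusted p 0.00389 and 7.7e-08). *ndhG* was the one member called higher in the second set (1.35, adjusted p = 0.00779), and *ndhA*, *ndhF*, *ndhG* and *ndhI* were higher in *Ateaf1-1* (1.67 for *ndhI*, adjusted p = 0.00595), but none was called in either with WT replicate 4 as the only WT library. *ndhF*, which stands alone beyond *ndhD*, was the highest member against *glk* on chloroplast counts in the second *Atepl1-2* set (0.23, adjusted p = 0.717), at 0.132, 0.140 and 0.122%, against 0.0911, 0.114 and 0.1303% in *glk*. *ndhB.1*, whose reads cannot be told from those of its copy, took 0.203, 0.148 and 0.0893% in the second *Atepl1-2* set and 0.205, 0.198 and 0.231% in *Ateaf1-1*, against 0.263, 0.225 and 0.249% in *glk*, and the label kinds differed for it in WT (0.0721, 0.0973 and 0.0688% in replicates 5, 7 and 8, and 0.234% in replicate 4).

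**Figure D3:**
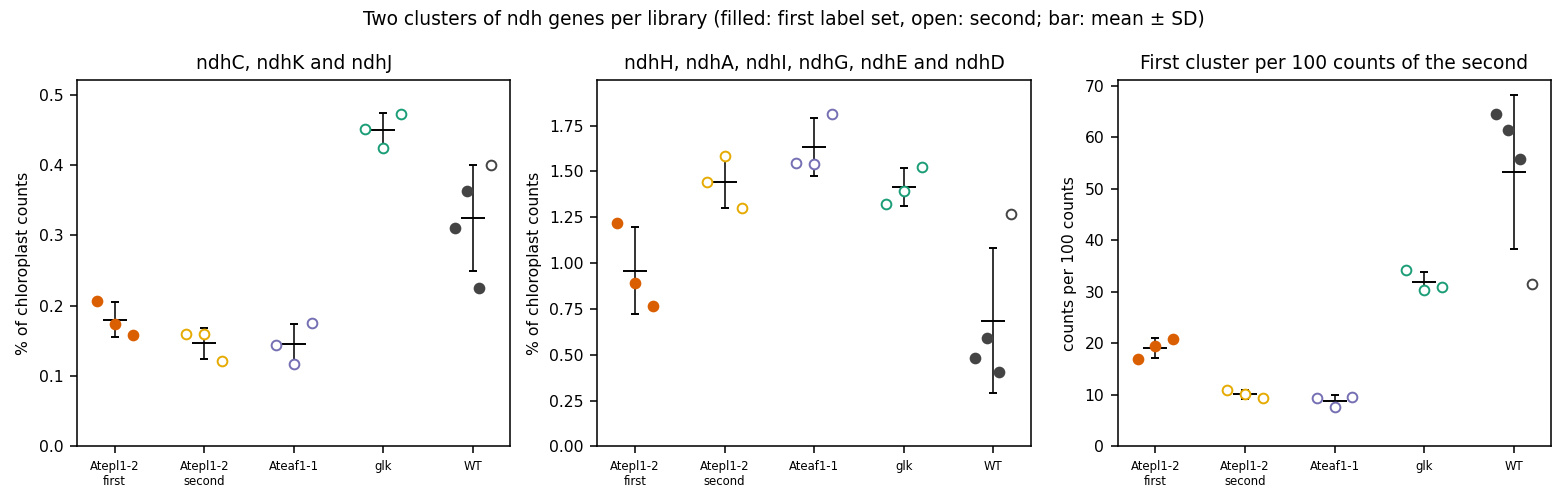
Summed counts of *ndhC*, *ndhK* and *ndhJ* (left) and of the 6 *ndh* genes of the small single-copy cluster (middle) as percent of chloroplast counts, and the counts of the first per 100 counts of the second (right), 1 point a library, filled for labels of the first kind and open for the second, with mean ± SD bars. In the left panel no NuA4 mutant library exceeds 0.207% and no *glk* or WT library is under 0.225%, and in the right panel the open WT point (31.5) lies with *glk* and not with the filled WT points.

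Set against each other, the clusters give the plainest picture of the split. The counts of *ndhC*, *ndhK* and *ndhJ* per 100 counts of the 6 small single-copy *ndh* genes were 16.9, 19.5 and 20.8 in the first *Atepl1-2* set, 11.04, 10.085 and 9.30 in the second, 9.32, 7.61 and 9.65 in *Ateaf1-1*, 34.1, 30.4 and 31.0 in *glk*. WT libraries held 64.6, 61.3, 55.7 and 31.5. The value was lower in the NuA4 mutants than in WT within both label kinds, while WT replicate 4 and *glk* were alike in value, and since the clusters were picked with these results known the ratio is given without a test. The summed NDH share hides this: it was 1.87 ± 0.21% in the second *Atepl1-2* set, 2.15 ± 0.21% in *Ateaf1-1* and 2.22 ± 0.14% in *glk* (n = 3 each), against 1.19 ± 0.57% in WT (n = 4), where replicates 5, 7, 8 and 4 held 0.916, 1.11, 0.735 and 2.01%.

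*psaC* lies inside the small single-copy cluster, between *ndhD* and *ndhE*. It took 0.273, 0.227 and 0.238% of chloroplast counts in the first *Atepl1-2* set, against 0.240, 0.249 and 0.225% in WT replicates 5, 7 and 8, so that the groups overlapped for this gene, unlike *ndhI*. In the second label kind its share was 0.316, 0.336 and 0.368% in *Atepl1-2*, 0.299, 0.461 and 0.348% in *Ateaf1-1*, 0.283, 0.299 and 0.305% in *glk* and 0.368% in WT replicate 4.

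By position, the lower calls relative to all genes were almost all in the large single-copy region. There, 19, 23 and 24 of 35 members were lower in the first and second *Atepl1-2* sets and *Ateaf1-1* than in WT, 1 in *glk*, and 11 and 12 were lower in the second *Atepl1-2* set and *Ateaf1-1* than in *glk*. Among all genes the shares were 21.8, 13.5, 12.5 and 7.45% against WT, and 11.3 and 9.58% against *glk*. In the small single-copy region edgeR and limma-voom called 0 of 7 members in any comparison, with 1 or 2 members at an unadjusted p under 0.05 in each, and DESeq2 called 1 lower in 4 of the 6 comparisons and 0 higher. The remaining calls were of *ndhB.1* in the inverted repeat, lower in the first *Atepl1-2* set than in WT and in the second set than in *glk*.

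The nuclear-encoded subunits of the same complexes were counted in the same fits, in lists named by complex. Among all genes, 21.8, 13.5, 12.5 and 7.45% were lower than in WT in the first and second *Atepl1-2* sets, *Ateaf1-1* and *glk*. Against *glk*, 11.3 and 9.58% of all genes were lower in the second *Atepl1-2* set and *Ateaf1-1*. For NDH, 5, 6 and 7 of 7 nuclear genes were lower in the first and second *Atepl1-2* sets and *Ateaf1-1* than in WT (median log2 change −1.24, −2.32 and −2.12), 1 (NDHS) was lower in *glk* (median −0.59), and 5 and 6 were lower than in *glk* (median −2.35 and −2.36). NDHN, a subunit of the stromal arm, had the largest change of these. It stood at 0.576, 0.602 and 0.637 TPM in the first *Atepl1-2* set, 0.237, 0.260 and 0.0341 in the second, 0.278, 0.192 and 0.124 in *Ateaf1-1*, 9.13, 8.71 and 8.90 in *glk*. WT libraries held 11.9, 7.39, 9.29 and 6.61. The NuA4 mutant libraries reached at most 0.637 TPM and no *glk* or WT library fell below 6.61 TPM, with log2 changes relative to all genes of −4.72 ± 0.17, −6.73 ± 0.44 and −6.56 ± 0.43 against WT (edgeR, adjusted p 1.65e-07, 1.26e-07 and 1.65e-07) and −6.14 ± 0.43 and −5.97 ± 0.43 against *glk* (adjusted p 2.17e-07 and 2.78e-07). In *glk* its log2 change was −0.59 (adjusted p = 0.189).

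For the photosystems the nuclear lists had another order of mutants. In *glk*, 12 of 12 nuclear PSI genes and 9 of 10 nuclear PSII genes were lower than in WT (median log2 change −2.15 and −1.69), beside medians of −0.45 and −0.30 for the chloroplast-encoded PSI and PSII genes. In the first and second *Atepl1-2* sets and *Ateaf1-1*, 12, 10 and 10 of the 12 nuclear PSI genes and 9, 8 and 8 of the 10 nuclear PSII genes were lower than in WT. Among all genes 21.8, 13.5 and 12.5% were lower there, and 7.45% in *glk*. Against *glk*, 2 and 3 of the 12 nuclear PSI genes were higher in the second *Atepl1-2* set and *Ateaf1-1*. Among all genes 15.6 and 12.1% were higher there, so that the second set stood near the share of all genes. PSAE2, a stromal subunit, was one of these nuclear PSI genes (log2 change 1.93 and 1.49, edgeR adjusted p 4.61e-05 and 0.000422). Nuclear ATP synthase genes were lower in 3 of 3 in each NuA4 mutant group and 2 of 3 in *glk*. For nuclear Rubisco genes the counts were 4, 2, 1 and 1 of 4, beside 21.8, 13.5, 12.5 and 7.45% of all genes.

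**Figure D4:**
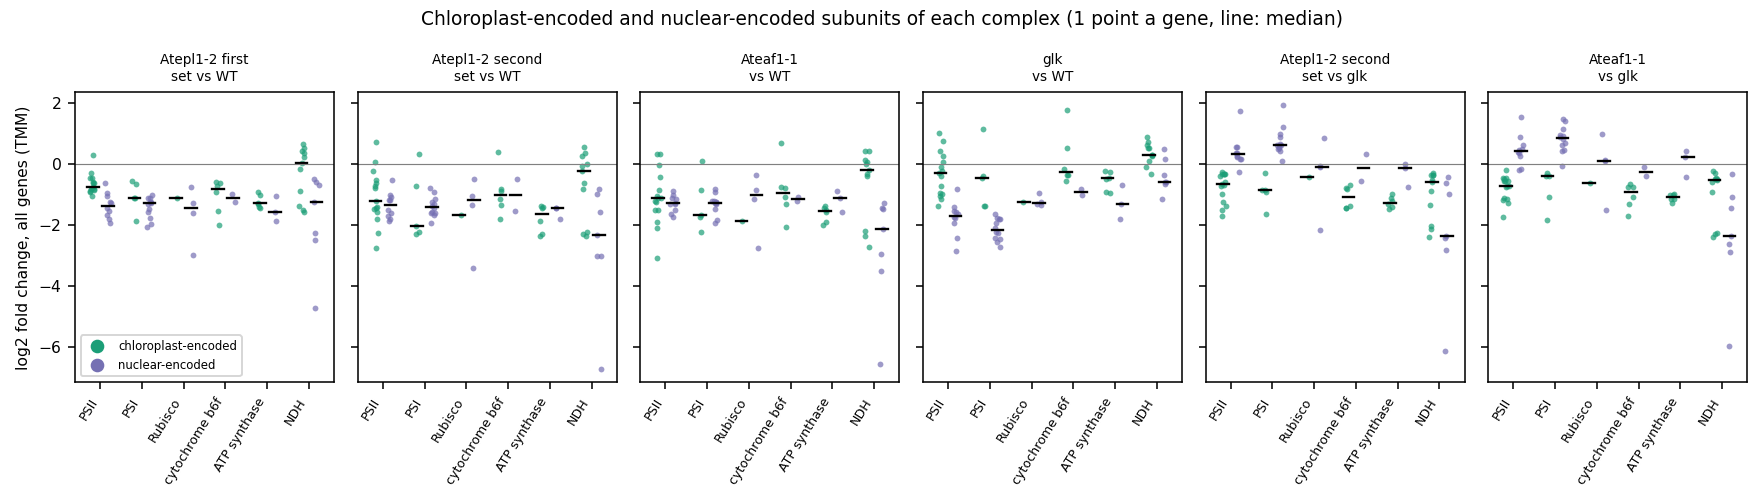
log2 fold change relative to all genes after TMM (y axis) of chloroplast-encoded (green) and nuclear-encoded (purple) subunits of 6 complexes (x axis) in 6 comparisons (panels), 1 point a gene with a line at the median. In *glk* against WT the nuclear PSI median is −2.15 and the nuclear NDH median −0.59, whereas against *glk* the nuclear NDH median is −2.35 in the second *Atepl1-2* set and −2.36 in *Ateaf1-1*.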

How the data were processed

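RNA-seq of 16 rosette-leaf libraries was analysed. Ribosomal RNA was depleted and poly(A) was not selected, so that chloroplast RNA is retained. The authors trimmed reads with BBDuk2 and quantified Araport11 genes with Salmon 0.13.1, correcting sequence and GC bias. They deposited gene counts (Salmon estimates as whole numbers) and TPM values, which are scaled by effective length. The TPM values of a library summed to 955462 to 979577 in the first label kind and to about 1e+06 in the second. TPM values were used across the label kinds without correcting this difference, and its cause was not tested. How reads from shared RNAs, overlapping genes or the *ndhB* copies were divided was decided by Salmon. ChIP-seq read totals were not used.

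Counts were tested with edgeR 4.0.16 (quasi-likelihood, filterByExpr, TMM, Benjamini-Hochberg adjustment over 18840 genes for the first set and 20733 genes for the 13 other libraries, WT replicates 5, 7 and 8 serving in both), with calls at an adjusted p under 0.01 and at least 1.5-fold. The chloroplast-count scale used the chloroplast total as library size and adjusted over 112 rows. Shares and ratios were compared with exact two-sided permutation tests over libraries (SciPy 1.17.1). Scripts were tested on simulated data. Alternatives were limma-voom 3.58.1, DESeq2 1.42.0, other scalings, filters, thresholds, TPM fits (pseudocount 1 or 0.1), a label term, a replicate block, and fits without each library. The label term was fitted over 16 libraries with the 2 *Atepl1-2* sets as 1 genotype, so that both sets share 1 result there.

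Given with every library's value are the most counted member of each complex and the members with the lowest and highest change per comparison and scale. Exceptions are *psbJ*, *psbF* and *ndhF*, which are given for some of the groups only. The remaining genes shown by library were chosen after their values were seen. Members and lists were chosen with earlier results of these data known. The identifiers of 26 members stand beside their symbols in tables of the study, and 19 were named by the identifier nomenclature. Total counts of 22330141 to 39666320 per library set the counting error. Replicates are pools of plants, and p values measure the spread between these samples.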

Additional observations from a re-analysis of the deposited data

Results flagged for a closer look

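The difference between the NuA4 mutants and *glk* was tested directly on chloroplast counts (edgeR), and 4 members passed in both mutants. In the second *Atepl1-2* set the log2 change against *glk* was −1.86 for *ndhC*, −1.58 for *ndhK*, −1.51 for *ndhJ* and −1.18 for *psaJ*. In *Ateaf1-1* it was −1.60, −1.57, −1.73 and −1.14 for the same genes. Both comparisons share the *glk* libraries. Of the 6 fits with 1 library left out, those that kept the call in the second *Atepl1-2* set were 1 each for *ndhC*, *ndhK* and *ndhJ* and 0 for *psaJ*, and in *Ateaf1-1* 0, 1, 3 and 0 for the 4 genes in the same order. The direction held in all of them. With *psbA* left out of the chloroplast total, 3 NDH genes and 0 PSI genes were called lower than in *glk* in each mutant.

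A single WT library lay far from the other 3 for 9 of the 44 members (Dixon's test on the percent of chloroplast counts, which chance passes for about 1 in 20 genes), and in 8 of the 9 that library was replicate 4, the WT library of the second label kind. WT replicate 4 was highest for *psbI* (0.138%, the others 0.0502 to 0.0615%), *psbM* (0.138%, the others 0.0280 to 0.0368%), *psbT* (0.113%, the others 0.0142 to 0.0216%), *psaC* (0.368%, the others 0.225 to 0.249%) and *psaI* (0.137%, the others 0.0283 to 0.0303%). The same library was highest for *petG* (0.0824%, the others 0.0221 to 0.0286%), *petL* (0.0257%, the others 0.00272 to 0.00383%) and *ndhE* (0.160%, the others 0.0294 to 0.0443%). For *psbC*, WT replicate 7 stood apart at 2.24%, the others at 1.58 to 1.65%.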

How the results depend on the processing

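The lower calls of *ndhC*, *ndhK* and *ndhJ* relative to all genes held in every alternative for the second *Atepl1-2* set and *Ateaf1-1*, whereas counts of calls moved. In the order first *Atepl1-2* set, second set, *Ateaf1-1* and *glk* against WT, then second set and *Ateaf1-1* against *glk*, lower calls relative to all genes were 20, 23, 24, 1, 12 and 12. With TPM at pseudocount 1 they were 4, 9, 7, 0, 5 and 5, at pseudocount 0.1 they were 4, 8, 6, 0, 4 and 4, and with a mean TPM of at least 1 they were 5, 9, 7, 0, 6 and 5. Those TPM fits gave 5, 4, 5 and 1 higher calls against WT. They gave the same with pseudocount 0.1, and 4, 4, 6 and 1 with the filter. Their median log2 change over all genes against WT was 0.27 to 0.96, beside 0.02 to 0.07 in the main fits. An adjusted p under 0.05 gave 1 higher call in the first set and 1 in *glk*, and 10 lower in *glk* and 22 in the second set against *glk*. DESeq2 gave 10 and 22 for the same, its size factors 2 in *glk*, and a fit without filter, with a label term or of 2 groups 0 in *glk*. *Ateaf1-1* had 12 lower in the fit of 2 groups and 14 with WT replicate 4 as the only WT library, where *glk* had 0.

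On chloroplast counts, higher calls against WT were 7, 1, 4 and 0. With a label term, which joins the 2 *Atepl1-2* sets in 1 group, they were 4 in *Atepl1-2* and 0 in *Ateaf1-1*. With an adjusted p under 0.05 they were 6, 9 and 12 in the second set, *Ateaf1-1* and *glk*, with all genes fitted 6, 9 and 1, with DESeq2 6, 7 and 5, without *psbA* 5 in the second set and 2 in *glk*, and with TMM over chloroplast rows 5 in the second set. Lower calls of 7, 7, 4 and 0 became 2, 0 and 1 in the NuA4 mutants without *psbA*, 0 with a label term, 7 at 0.05 and 8 with TMM over chloroplast rows in *Ateaf1-1*, and 1 at 0.05 and 3 with TMM over chloroplast rows in *glk*. With WT replicate 4 as the only WT library, chosen after seeing the data, 0 were called in either direction.

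Leaving out 1 library, lower calls relative to all genes were 12 to 19, 20 to 25, 18 to 25, 0 to 9, 9 to 14 and 4 to 7, and higher calls against WT 0 to 1, 0 to 5, 0 to 3 and 0 to 7. On chloroplast counts lower calls were 2 to 9, 0 to 9, 0 to 7, 0 to 1, 0 to 3 and 0 to 2, and higher calls against WT 5 to 7, 0 to 13, 0 to 17 and 0 to 18.

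Some uncalled values changed sign. On TPM, *psbA* was at 0.23 in the first set, 0.074 in the second and 0.034 in *glk* against WT and 0.040 in the second set against *glk*, *psbJ* at 0.18 in the second set and *psbF* at 0.27 in *Ateaf1-1* against *glk*. Against WT, *psbM* was −0.54 in the joined *Atepl1-2* sets with a label term and −0.40 in the second set with WT replicate 4 alone. In the same 2 fits *petL* in *Ateaf1-1* was −0.65 and −0.70, and *psbN* in *glk* on chloroplast counts 0.28 and 0.026. *psbF* in *Ateaf1-1* against *glk* ranged over left-out libraries between −0.76 (without *Ateaf1-1* replicate 2) and 0.050 (without replicate 1), and on chloroplast counts between −0.15 (without replicate 2) and 0.87 (without replicate 1). As shares of all counts the *psbA* difference was −0.764 and −5.04 percentage points in the second set and *Ateaf1-1*. As TPM shares it was −0.643 for *psbA* and 1.60 for PSI in *glk*, and 2.995 against WT and 1.81 against *glk* for PSII without *psbA* in the second set. The log2 ratio to PSII genes in *glk* was 0.26 for PSI and −0.063 for the ATP synthase on TPM, and −0.29 for the ATP synthase as a mean over genes. The cause of these changes was not tested.

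Replicate numbers did not pair the samples (correlation of same-numbered deviations −0.113 to 0.200). With a replicate block in the 9 libraries of the mutants of the second label kind, 19 members were lower in the second set than in *glk*, against 16 without it, and 17 in *Ateaf1-1* with or without it. Against WT too few numbers were shared for a block. Counting error is largest for *petL*, the least counted member.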

Other observations

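Chloroplast-encoded genes outside photosynthesis were counted in the same fits, and the difference between the mutants was not tested. Relative to all genes, 11 of 17 plastid-encoded ribosomal protein genes were lower in the second *Atepl1-2* set than in *glk* (median log2 change −1.50) and 3 in *Ateaf1-1* (−1.03). Against WT 5, 8 and 2 of them were lower in the first and second *Atepl1-2* sets and *Ateaf1-1* (medians −0.58, −1.22 and −0.47), beside 21.8, 13.5 and 12.5% of all genes, so that *Ateaf1-1* stood near the share of all genes. Of 9 genes for the plastid RNA polymerase and other non-photosynthetic proteins, 1, 5 and 1 were lower than in WT in the same order, and 6 and 1 lower than in *glk*, where 11.3 and 9.58% of all genes were lower in the second *Atepl1-2* set and *Ateaf1-1*. The 4 plastid assembly factor genes had medians of −0.31, −0.38 and −0.13 against WT and −0.88 and −0.70 against *glk*, and edgeR called none, with 0, 0 and 1 at an unadjusted p under 0.05 against WT and 2 and 2 against *glk*. Mitochondrial rows took 1.72% of all counts in the second *Atepl1-2* set and 1.76% in *Ateaf1-1*, against 0.705% in WT.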
